A study of Mus musculus with 6 samples.

Results

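Tmem100, Ecscr, Slc1a3, Nav3, Scamp5, Thrsp, Tmem204, Upk1b, Mymk and Eva1a are 10 protein-coding mouse genes of the 49016 gene symbols in the count table. They were picked by name because their reads were nearly absent from monocytes and plentiful in microglia, so their levels in those cell types are what chose them and are given below as a description, with no test. Most are known from cells other than microglia. Slc1a3 encodes a glutamate and aspartate transporter found chiefly in astrocytes, Scamp5 and Nav3 are known from neurons, Ecscr, Tmem204 and Tmem100 from endothelium, Mymk from fusing muscle cells, Upk1b from the bladder lining, Thrsp from fat-making tissues, and Eva1a from autophagy and cell death.

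The data were RNA-seq libraries of sorted mouse myeloid cells, 6 in number, with 1 library for each pairing of a cell type with a genotype. The cell types were monocytes, intravascular macrophages and microglia, and the genotypes were wild type and a mutant carrying BRAF V600E, the constantly active form of a kinase that feeds the ERK pathway. Not given in the sources used here are the number of animals or cells behind a library, the age of the mice, the promoter or Cre behind the mutant allele, the sorting gates, and whether mice were shared between cell types. Because each group is a single library, genotype differences have no replicate check and carry no p-value.

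Microglia are the resident macrophages of the brain. They settle there in the embryo from the yolk sac and renew in place, whereas monocytes are made in the bone marrow and circulate in blood. Blood-derived macrophages that settle in the brain can take up many microglial genes, but not all of them. The canonical microglia markers are widely used to tell these cells apart, while the 10 genes described here are used for it less often.

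Between 25757886 and 65421671 reads per library fell on named genes. Levels are given as CPM, read counts relative to library size after scaling by TMM factors, which correct library sizes for a few very abundant genes. The sort labels were set against marker genes. The 14 canonical microglia markers, such as P2ry12 and Tmem119, summed to 44667.5 CPM in wild-type microglia and 74806 CPM in mutant microglia, and to 1720 and 1484.6 CPM in the corresponding monocytes. The 10 classical monocyte markers, such as Ly6c2 and Ccr2, summed to 10302 and 16966.5 CPM in monocytes and to 13.7 and 23.1 CPM in microglia. Intravascular macrophages lay between them on the microglia list, with 3951 CPM for wild type and 14748 CPM for the mutant. The 10 patrolling monocyte markers, such as Itgal and Nr4a1, summed to 2817 and 3373 CPM in intravascular macrophages. Their sums were 1148 and 1349 CPM in monocytes and 35.6 and 97.1 CPM in microglia. The library labelled wild-type intravascular macrophages also held 4689.6 CPM of 10 T and NK cell markers, against 3.41 CPM in its mutant counterpart. The mutant monocyte library held 56614 CPM of 10 neutrophil markers and 10541.7 CPM of 6 erythroid markers, against 1830 and 222 CPM in wild-type monocytes. It also held 2201 CPM of 10 border macrophage markers and 1743 CPM of 6 platelet markers, against 58.7 and 22.1 CPM. Pf4, at 1657 CPM in mutant monocytes, is in both of these lists. The part of these other cells in the results below was not tested. In bulk samples, fewer cells of a type and less RNA per cell cannot be told apart.

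Together the 10 genes took 23 of the reads of wild-type monocytes and 40 of those of mutant monocytes. That is 0.893 reads per 1000000 (exact Clopper-Pearson 95% interval 0.566 to 1.34) and 0.644 per 1000000 (0.460 to 0.878), where the intervals cover counting error only because PCR reads without molecular identifiers are not independent molecules. Microglia held 52393 reads of these genes in wild type and 58219 in the mutant, or 1481 and 1499.9 reads per 1000000. Intravascular macrophages held 6016 and 26815 reads, or 208 and 409.9 per 1000000. All 10 genes reached 10 CPM in both microglia libraries and none did in either monocyte library, as the choice required. In wild-type intravascular macrophages 6 of the 10 reached 10 CPM, and in mutant ones 8 did.

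**Figure D1:**
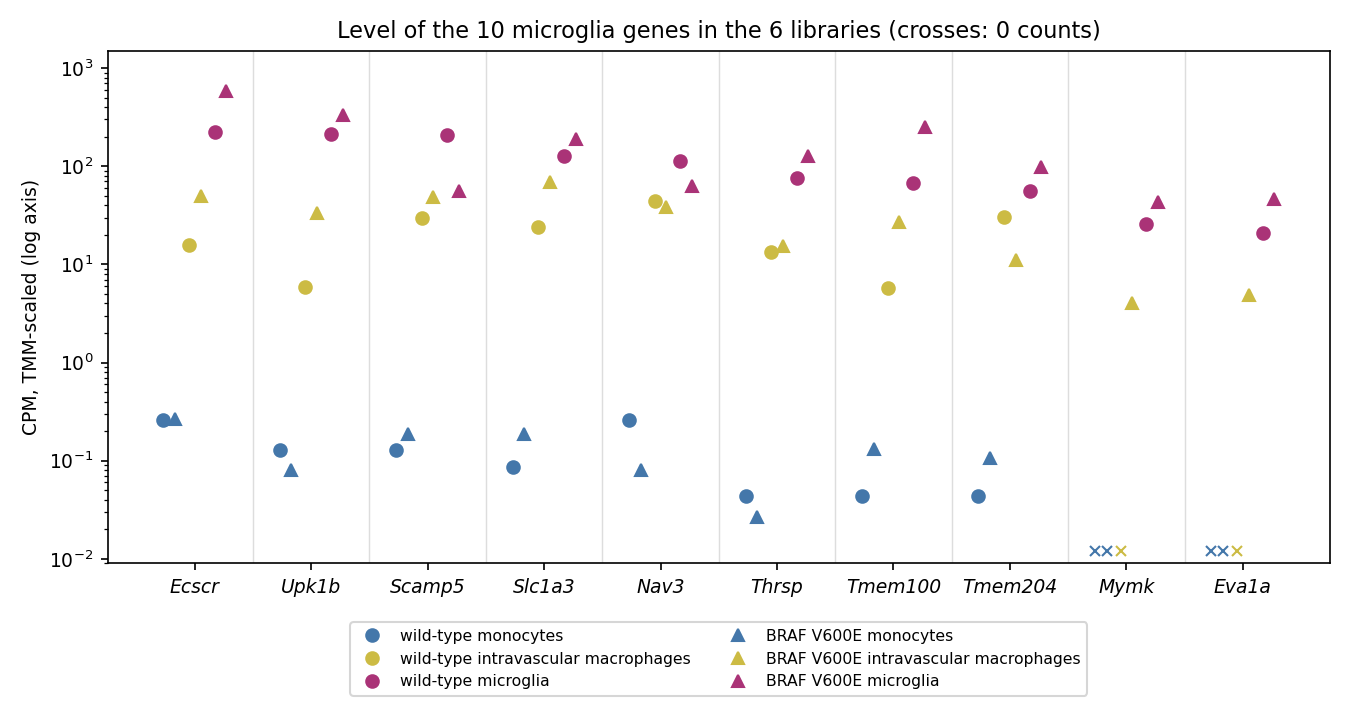
Levels of the 10 genes in each of the 6 libraries, as CPM on a log axis, with 1 point per library and no error bar because each group has 1 library. Microglia lie highest for every gene, monocytes lie at or below 0.266 CPM, and intravascular macrophages lie between, except Mymk and Eva1a, which had 0 counts in wild-type intravascular macrophages.

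At the edge of the choice, the lowest microglia count among the 10 genes was 976, of Eva1a in wild type, and the highest monocyte count was 10, of Ecscr in the mutant. Exactly these bounds, taken over all genes, held 27 genes, so 17 genes outside the chosen 10 lay within them. Among those 17 were Adamts1, Csmd3, Lrrc3, Sall3, Tgfa, Tmem44 and Tspan7, which are named here after their values were seen. Only 1 of the 14 canonical markers, the transcription factor Sall1, lay within the same bounds. Over the 14 canonical markers the monocyte counts ran from 2 to 32138.

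Ecscr encodes a small transmembrane protein of endothelial cells that takes part in cell migration and vessel formation. It was counted 6 times in wild-type and 10 times in mutant monocytes, 561 and 4401 times in intravascular macrophages, and 10424 and 19110 times in microglia. In CPM these levels were 0.260 and 0.266 in monocytes, 15.7 and 49.4 in intravascular macrophages, and 225 and 588 in microglia. Both genotypes kept the same order, with microglia far above intravascular macrophages and those far above monocytes. Per length, Ecscr was the most abundant of the 10 genes in both microglia libraries and in mutant intravascular macrophages, at 295, 635 and 100.03 TPM, where TPM is a level scaled for gene length within a library. It lies on chromosome 18 at 35713086 to 35722356 on the minus strand in mm10, and 62 bases of its exons overlap 1700066B19Rik on the other strand, which had at most 157 counts in any library.

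Tmem204 encodes a claudin-like membrane protein of endothelial cell junctions. Its counts were 1 and 4 in wild-type and mutant monocytes, 1092 and 988 in intravascular macrophages, and 2610 and 3184 in microglia. In the same order the levels were 0.0433 and 0.106 CPM, 30.6 and 11.1 CPM, and 56.3 and 98.0 CPM. In wild type the intravascular macrophages stood at 54.3% of the microglia level, the highest share of the 10 genes in that genotype, and in the mutant at 11.3%. Tmem204 was the most abundant of the 10 genes per length in wild-type intravascular macrophages, at 20.7 TPM.

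Tmem100 encodes a small membrane protein that endothelial cells switch on in response to BMP9 and BMP10 through the receptor ALK1. It had 1 and 5 counts in monocytes, 207 and 2407 in intravascular macrophages, and 3125 and 8086 in microglia, with wild type given first. These were 0.0433 and 0.133 CPM, 5.80 and 27.0 CPM, and 67.4 and 249 CPM. The mutant library was the higher one in microglia and in intravascular macrophages, and the monocyte counts were too few to order.

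Endothelial markers were scarce in microglia. The 12 endothelial markers summed to 32.9 CPM in wild-type microglia and 10.96 CPM in mutant microglia, and 5 of them, Cldn5, Esam, Robo4, Tek and Emcn, had 0 counts in both microglia libraries. Ecscr alone therefore stood above the sum of the whole endothelial list in each microglia library. In wild-type intravascular macrophages the list summed to 41.5 CPM, and in mutant ones to 152 CPM, where Pecam1 had 8562 counts and Vwf 3555, while Tek and Emcn were at 0. The part of endothelial RNA in the intravascular macrophage levels of Ecscr, Tmem204 and Tmem100 was not tested.

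Slc1a3 encodes the transporter known as GLAST or EAAT1, which clears glutamate and aspartate from the space around synapses. Its counts were 2 and 7 in monocytes, 852 and 6138 in intravascular macrophages, and 5850 and 6175 in microglia, wild type first. Levels were 0.0867 and 0.186 CPM, 23.9 and 68.9 CPM, and 126 and 190.02 CPM. The 10 astrocyte markers summed to only 3.88 CPM in wild-type microglia and 24.6 CPM in mutant microglia, with Gfap at 7 and 12 counts and Aqp4 at 9 and 8. Most of the mutant sum was Aldoc, a glycolytic enzyme, with 592 counts there, at 18.2 CPM against 1.53 CPM in wild-type microglia. Slc1a2 went from 0.669 CPM in wild-type to 2.83 CPM in mutant microglia, and Gja1 from 0.0216 to 0.462 CPM. In CPM, only Fgfr3, with 3 and 2 counts, was lower in the mutant, and Slc4a4 had 0 counts in both. The part of astrocyte RNA in the levels of Slc1a3 was not tested.

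Scamp5 encodes a secretory carrier membrane protein that helps recover synaptic vesicles in neurons. It had 3 and 7 counts in monocytes, 1052 and 4343 in intravascular macrophages, and 9645 and 1834 in microglia. Levels were 0.130 and 0.186 CPM in monocytes, 29.5 and 48.8 CPM in intravascular macrophages, and 208 and 56.4 CPM in microglia. Wild-type microglia thus stood above all other libraries, and mutant microglia stood close to mutant intravascular macrophages, which reached 86.4% of their level. Nav3 encodes a neuron navigator protein that binds the growing ends of microtubules. Its counts were 6 and 3 in monocytes, 1561 and 3444 in intravascular macrophages, and 5274 and 2052 in microglia, at 0.260 and 0.0798 CPM, 43.7 and 38.7 CPM, and 114 and 63.1 CPM. Nav3 and Scamp5 were the members with a lower level in mutant than in wild-type microglia, although for Nav3 the direction turned with a correction for gene length, given below. The 10 neuron markers summed to 5.39 CPM in wild-type microglia and 26.7 CPM in mutant microglia. Snap25, a vesicle fusion protein, made up 575 of the neuron marker counts in mutant microglia. The part of neuronal RNA in the levels of Scamp5 and Nav3 was not tested.

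The start of Scamp5 is shown because Scamp5 differed most between genotypes in the downward direction in microglia. The window runs from 250 bases before to 50 bases after the RefSeq gene start, at chr9:57468011-57468310 on the minus strand of GRCm38.p6, written 5′ to 3′. It holds 32 CpG pairs and 66.0% G or C, and 91.4% of all 32851 mouse promoter windows of the same length hold as many CpG or fewer.
Scamp5: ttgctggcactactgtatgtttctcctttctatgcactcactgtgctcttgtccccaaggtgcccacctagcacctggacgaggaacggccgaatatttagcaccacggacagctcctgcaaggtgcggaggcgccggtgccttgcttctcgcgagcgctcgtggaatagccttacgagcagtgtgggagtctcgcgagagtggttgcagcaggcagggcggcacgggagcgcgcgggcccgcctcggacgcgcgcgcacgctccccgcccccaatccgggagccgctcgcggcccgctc

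Thrsp encodes Spot14, a nuclear protein induced by thyroid hormone and carbohydrate that promotes fatty acid synthesis in liver, fat and mammary gland. Its counts were 1 and 1 in monocytes, 479 and 1367 in intravascular macrophages, and 3517 and 4128 in microglia. Levels were 0.0433 and 0.0266 CPM, 13.4 and 15.4 CPM, and 75.9 and 127 CPM. Every intravascular macrophage level lay between the monocyte and microglia levels. The 7 adipocyte markers summed to 0.0431 CPM in wild-type microglia and 0.0308 CPM in mutant microglia.

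Promoter windows from RefSeq (GRCm38.p6) were at hand for 4 of the 10 genes, Thrsp, Scamp5, Eva1a and Slc1a3, and were searched on both strands for 5 short motifs. The motifs were GAGGAAG of PU.1, the composite site of PU.1 with IRF factors, the MEF2 site, TGANTCA of AP-1 and CAGACAG of SMAD proteins. PU.1, IRF8, MEF2C and SMAD factors are known regulators of microglia. Among all 32851 windows, 13.6% held the PU.1 letters, 2.72% the PU.1 with IRF letters, 3.69% the MEF2 letters, 7.81% the AP-1 letters and 7.73% the SMAD letters. Thrsp is shown because it was the only 1 of the 4 windows to hold any match. Its window, chr7:97417501-97417800 on the minus strand, holds the SMAD letters on the opposite strand from 19 bases before the start, the MEF2 letters from 3 bases before the start and across it, and the PU.1 letters from 31 bases after it, without overlap, in capitals here. Such a match is a run of letters and not a measured binding site.
Thrsp: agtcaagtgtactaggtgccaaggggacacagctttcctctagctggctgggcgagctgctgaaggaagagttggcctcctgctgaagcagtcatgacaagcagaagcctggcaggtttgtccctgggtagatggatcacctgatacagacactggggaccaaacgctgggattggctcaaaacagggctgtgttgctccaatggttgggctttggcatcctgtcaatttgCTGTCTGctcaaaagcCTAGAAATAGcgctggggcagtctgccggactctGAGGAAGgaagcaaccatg

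Upk1b encodes a tetraspanin of the plaques that cover the surface of the bladder lining. It had 3 and 3 counts in monocytes, 212 and 2938 in intravascular macrophages, and 9773 and 10738 in microglia, at 0.130 and 0.0798 CPM, 5.94 and 33.0 CPM, and 211 and 330.4 CPM. Upk1b ranked just below Ecscr per length in both microglia libraries, at 263 and 339 TPM. The 8 urothelial and epithelial markers summed to 0.237 and 0.400 CPM in the microglia libraries, with Krt5 and Krt20 at 0 counts in all 6 libraries. In intravascular macrophages the sums were 42.4 CPM (wild type) and 22.1 CPM (mutant). Nearly all of both sums was the 1 gene Cdh1, at 42.3 and 21.4 CPM.

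Mymk encodes myomaker, the membrane protein that drives the fusion of muscle precursors, and Eva1a encodes a membrane protein of lysosomes and the endoplasmic reticulum linked to autophagy. Mymk had 0 counts in both monocyte libraries and in wild-type intravascular macrophages, 358 in their mutant counterpart, 1199 in wild-type microglia and 1411 in mutant microglia. Eva1a also had 0 counts in both monocyte libraries and in wild-type intravascular macrophages, with 431 in mutant intravascular macrophages and 976 and 1501 in microglia. These were 4.02 and 4.84 CPM in mutant intravascular macrophages, 25.9 and 43.4 CPM for Mymk in microglia, and 21.1 and 46.2 CPM for Eva1a. A library with 0 counts allows a level of up to 3 counts, which was 0.0840 CPM in wild-type intravascular macrophages and 0.130 and 0.0798 CPM in wild-type and mutant monocytes. Skeletal muscle markers, 8 in all, summed to 1.51 and 2.68 CPM in microglia, with Myod1 and Pax7 at 0 counts in all 6 libraries. The antisense gene Gm15864, which overlaps 86 bases of Eva1a exons, had at most 5 counts in any library.

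Eva1a is shown because its 0 counts in wild-type intravascular macrophages set it and Mymk apart from the other members. Its window is chr6:82041378-82041677 on the plus strand, with 64.0% G or C and 21 CpG pairs, against medians of 52.7% and 7 over all windows.
Eva1a: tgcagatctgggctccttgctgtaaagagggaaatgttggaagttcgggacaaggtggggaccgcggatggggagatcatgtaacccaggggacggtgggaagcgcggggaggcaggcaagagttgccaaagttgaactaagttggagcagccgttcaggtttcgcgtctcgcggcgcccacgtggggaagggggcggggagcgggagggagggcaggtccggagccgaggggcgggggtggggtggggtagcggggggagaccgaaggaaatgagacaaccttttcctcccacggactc

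A count of 0 was common among weakly expressed genes in that one library. Of the 1382 genes that lay between 4 and 8 CPM in mutant intravascular macrophages, as Mymk and Eva1a did, 20.2% had 0 counts in wild-type intravascular macrophages. The share at 0 among the same genes was 3.98% in wild-type monocytes, 2.39% in wild-type microglia, 1.88% in mutant monocytes and 1.81% in mutant microglia. Wild-type intravascular macrophages also had the fewest genes with any count, 15121 against 19063 to 23214 in the other libraries. Of the 17 other genes within the members' bounds, 3 had 0 counts in wild-type intravascular macrophages.

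In microglia, 8 of the 10 genes were higher in the BRAF V600E library and 2 were lower with TMM scaling, and none reached 4-fold. Of all 8789 genes at 10 CPM, 4638 were higher and 4151 lower. The direction of Slc1a3 turned with scaling by library size alone, and that of Nav3, Upk1b and Mymk with a correction for gene length. A gene was counted as past the size rule when it differed by at least 4-fold and reached 10 CPM in the higher library; 0 of 10 members passed it upward and 0 downward, where 2.91% of the 8789 genes at 10 CPM passed upward and 4.43% downward. Mutant over wild type, the median log2 ratio was 0.75 over the 10 genes, 0.92 over the 14 canonical microglia markers and 0.15 over all genes. Over the 17 other genes within the members' bounds of microglia and monocyte counts it was -0.23. Tmem100 was 3.69-fold higher (exact conditional binomial 95% counting interval 3.54 to 3.85), Ecscr 2.62-fold higher (2.55 to 2.68) and Eva1a 2.19-fold higher (2.02 to 2.38). The other 5 that were higher, Tmem204, Mymk, Thrsp, Upk1b and Slc1a3, ran from 1.51-fold to 1.74-fold. Scamp5 was 3.69-fold lower (3.51 to 3.88) and Nav3 1.80-fold lower (1.71 to 1.90). When libraries were scaled by their size alone, the median log2 ratio moved to -0.50 over all genes, 0.10 over the 10 genes and 0.27 over the canonical markers. The ratio of Slc1a3 moved to -0.06, and that of Scamp5 past 4-fold to -2.53. Upk1b, Thrsp, Mymk and Tmem204 came to 0.002, 0.10, 0.10 and 0.15. Of the TPM, the 1 gene Gm23935 took 38.1% in wild-type and 1.13% in mutant microglia. With TPM the all-gene median was -0.13 and Scamp5 lay at -2.16. Scamp5 was the member with the largest loss under each of these scalings.

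**Figure D2:**
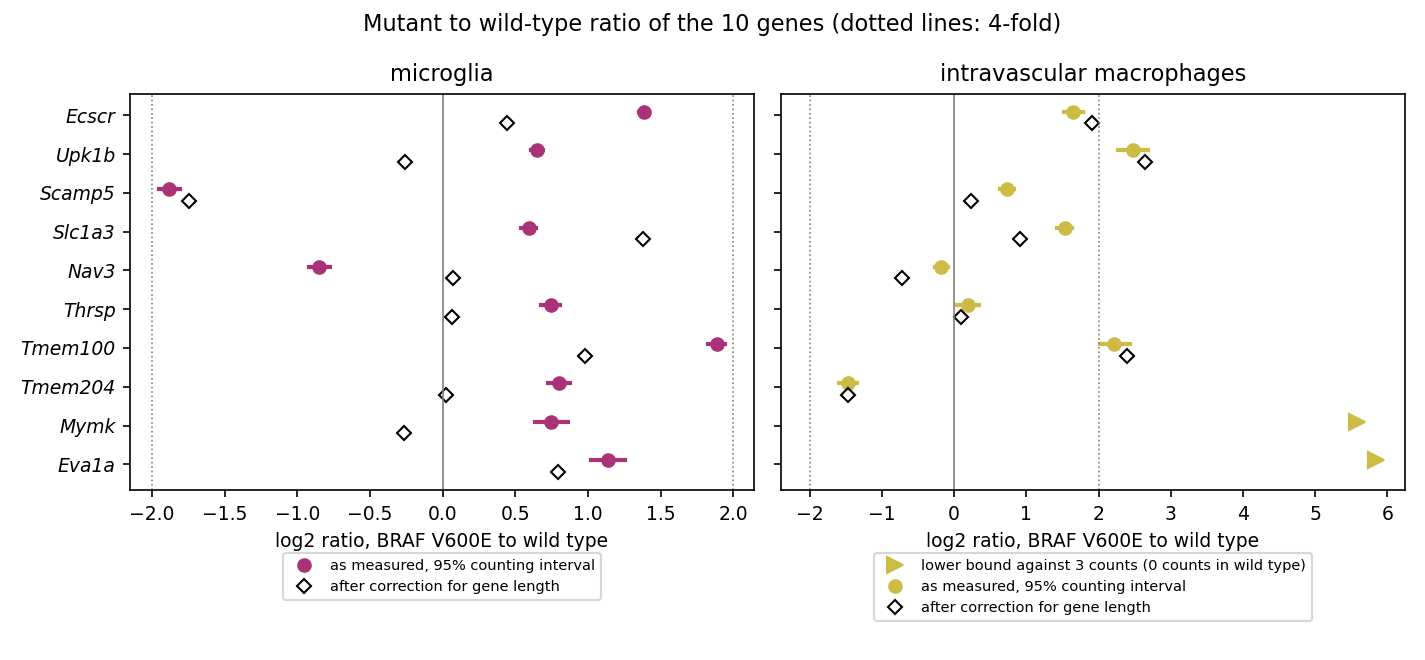
Log2 ratio of BRAF V600E to wild type for each of the 10 genes in microglia and in intravascular macrophages, with 1 library per group; error bars are 95% counting intervals, open diamonds are the ratios after the correction for gene length, dotted lines mark 4-fold, and triangles are lower bounds for genes with 0 counts in wild type. Scamp5 lies at -1.88 in microglia and 0.73 in intravascular macrophages, and Tmem204 at 0.80 and -1.46, so these genes lie on opposite sides of 0 in the 2 cell types.

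Gene length moved with the genotype ratio in microglia. When genes were split into 5 equal classes by exonic length, the median log2 ratio of mutant to wild type went from 1.28 in the shortest class, of median length 1590 bases, through 0.69, -0.17 and -0.61 to -0.85 in the longest class, of median length 9296 bases. Tmem100, Ecscr, Thrsp, Tmem204, Upk1b and Mymk, between 1511 and 2189 bases long, belong to the shortest class, Eva1a to the second, Scamp5 to the third, and Slc1a3 and Nav3 to the longest. With a correction of every gene's ratio for length, 4 members stayed more than 0.4 from 0 on the higher side: Slc1a3 at 1.38, Tmem100 at 0.98, Eva1a at 0.79 and Ecscr at 0.44. Scamp5 stayed lower at -1.74. Thrsp, Tmem204 and Nav3 came to 0.06, 0.02 and 0.07, and Upk1b and Mymk turned to -0.26 and -0.27. The median over the 10 genes was then 0.06, against 0.18 over all genes. In intravascular macrophages the class medians, from shortest to longest, were -0.93, -0.22, -0.05, 0.07 and -0.04. No member changed direction with the correction there. Slc1a3 moved from 1.53 to 0.91, Scamp5 from 0.73 to 0.23 and Nav3 from -0.18 to -0.72, while Ecscr rose from 1.65 to 1.90. The median over the 8 members at 10 CPM moved from 1.13 to 0.57, and that over all genes from -0.24 to -0.53.

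**Figure D3:**
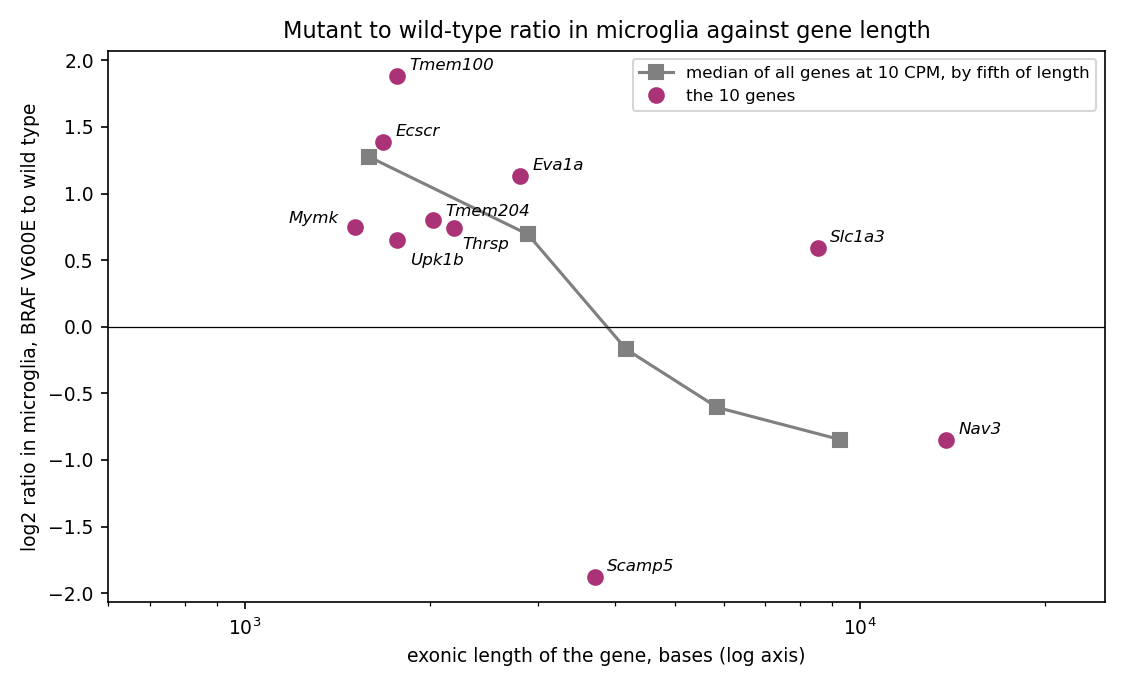
Log2 ratio of BRAF V600E to wild-type microglia against exonic gene length on a log axis; points are the 10 genes, with 1 library per group, and grey squares are the medians of all genes at 10 CPM in 5 classes of length. The medians fall from 1.28 to -0.85 from short to long genes. Tmem100, Ecscr, Eva1a and Slc1a3 lie above the line, and Scamp5, Upk1b, Thrsp and Tmem204 lie below it. Mymk and Nav3 lie beyond its ends.

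In intravascular macrophages, Upk1b and Tmem100 were higher in the mutant past the size rule, at 5.56-fold (4.83 to 6.42) and 4.66-fold (4.04 to 5.40). They were 2 of the 8 members at 10 CPM, and 0 of 8 passed downward, where 15.3% of 9541 genes passed upward and 14.1% downward. The share of the background past the rule was several times that in microglia in both directions. Ecscr was 3.15-fold higher (2.88 to 3.44), Slc1a3 2.89-fold higher (2.69 to 3.11), Scamp5 1.66-fold higher (1.55 to 1.77) and Thrsp 1.14-fold higher (1.03 to 1.27). Tmem204 was 2.76-fold lower (2.53 to 3.01) and Nav3 1.13-fold lower (1.06 to 1.20), though Nav3 was higher by TPM, at a log2 ratio of 1.12. By TPM the median of all genes lay at 1.07 and not at -0.24, Tmem204 moved from -1.46 to -0.15 and Scamp5 from 0.73 to 2.03, and 5 members were higher past the size rule, Upk1b, Tmem100, Ecscr, Slc1a3 and Scamp5. All genes past the rule were then 2688 higher and 537 lower, against 1462 and 1343 with TMM scaling. The 1 gene Gm23935 took 46.6% of the wild-type TPM and 5.02% of the mutant TPM, which leaves unlike shares for all other genes. How far this moved the TPM ratios was not tested. Mymk was at least 47.8-fold and Eva1a at least 57.6-fold higher, against the 3-count floor of wild type, but neither reached 10 CPM. The median log2 ratio was 1.13 over the 8 members at 10 CPM, 1.81 over the canonical markers and -0.24 over all genes. Of the 17 other genes within the members' bounds, 15 reached 10 CPM, with a median of 5.92. Of those 15, 10 passed the size rule upward and 1 downward. Of the canonical markers, 5 of 14 passed upward. Several lists of other cell types differed between the same libraries. From wild type to mutant, the 10 T and NK cell markers went from 4689.6 to 3.41 CPM, the 10 border macrophage markers, such as Mrc1 and Cd163, from 58.3 to 775 CPM, the 10 neutrophil markers from 23.7 to 376 CPM, the 10 classical monocyte markers from 598 to 1115 CPM and the 12 endothelial markers from 41.5 to 152 CPM. Their part in the members' ratios was not tested.

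Within a genotype, intravascular macrophages held less of every member than microglia. In wild type 8 of the 10 genes were lower past the size rule, where 18.6% of all genes were, and in the mutant 7 of 10, where 4.73% were. Because the microglia levels chose the members, nothing is read from these counts. In wild type the fold below microglia was 35.5 for Upk1b, 14.3 for Ecscr, 11.6 for Tmem100, 7.06 for Scamp5, 5.65 for Thrsp, 5.29 for Slc1a3, 2.60 for Nav3 and 1.84 for Tmem204, and at least 308 for Mymk and at least 251 for Eva1a. In the mutant 7 genes lay between 8.28-fold (Thrsp) and 11.9-fold (Ecscr) below microglia, while Slc1a3 was 2.76-fold, Nav3 1.63-fold and Scamp5 1.16-fold below.

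Expressed as shares, mutant intravascular macrophages held 8.40% to 12.1% of the mutant microglia level of Ecscr, Mymk, Upk1b, Eva1a, Tmem100, Tmem204 and Thrsp. Slc1a3 at 36.3%, Nav3 at 61.3% and Scamp5 at 86.4% stood above that range. That range was drawn from the members themselves, leaving out the 3 with the highest shares, so nothing is read from the number of members within it. Of the 14 canonical markers, 7 lay in the same range and 7 above it, up to 156.6%, with a median of 12.4%. In wild type the shares of all 10 genes ran from 0% for Mymk and Eva1a to 54.3% for Tmem204. Among those between were Upk1b at 2.82%, Ecscr at 6.99%, Tmem100 at 8.60% and Nav3 at 38.4%. The mutant shares of all 10 genes ran from 8.40% to 86.4%. The canonical markers ran from 4.18% to 18.4% in wild type and from 8.52% to 156.6% in the mutant. Of the 671 other genes past the size rule for microglia over monocytes in both genotypes, the median share was 12.5% in wild type and 38.1% in the mutant. In the mutant 23 of the 671 lay within the range of 8.40% to 12.1%. The members' medians were 11.4% and 11.1%.

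**Figure D4:**
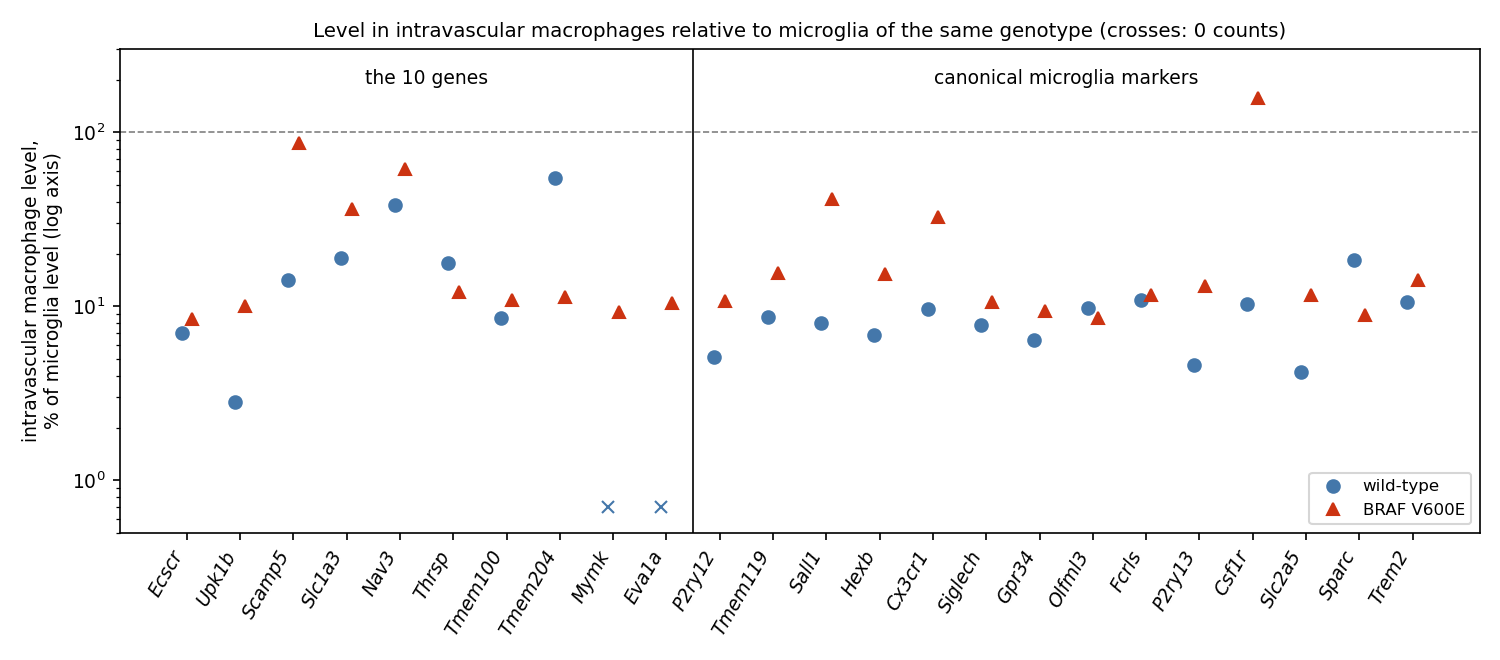
Level in intravascular macrophages as a percent of the level in microglia of the same genotype, on a log axis, for the 10 genes and the 14 canonical microglia markers, with 1 library pair per genotype. In the mutant, 7 of the 10 genes lie between 8.40% and 12.1%, a range drawn from these same genes. In wild type Mymk and Eva1a are at 0%, drawn at the edge of the axis.

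In monocytes no member reached 10 CPM in either genotype, so none could pass the size rule there, where 6.21% of genes passed upward and 0.641% downward. The largest monocyte counts were 6 for Nav3 and 6 for Ecscr in wild type and 10 for Ecscr in the mutant. Against monocytes, all 6 members at 10 CPM in wild-type intravascular macrophages and all 8 in mutant ones were past the size rule upward, beside 17.1% and 6.74% of genes; the monocyte levels chose the members, so nothing is read from these counts. The microglia against monocyte contrast, which chose the members, had 10 of 10 upward in both genotypes, beside 12.5% and 15.3% of genes.

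The genes most like each member over the 6 libraries were found by the root mean square difference of centred log2 CPM among 10137 genes. Mymk and Eva1a were each other's nearest gene, at 0.17, followed by Angptl7 at 0.32 and 0.28. Ecscr was nearest to the canonical markers Olfml3 at 0.24 and Siglech at 0.33, and Thrsp to Sparc at 0.28 and Olfml3 at 0.46. Tmem100 was nearest to Serpine2 at 0.36 and Ecscr at 0.38, Upk1b to Slc2a5 at 0.39 and Ecscr at 0.44, and Slc1a3 to Tspan7 at 0.36 and Serpine2 at 0.51. Scamp5 was nearest to Fscn1 at 0.51 and Tpbgl at 0.55, Tmem204 to Tspan7 at 0.64 and Thrsp at 0.70, and Nav3 to Slc39a12 and Scamp5, both at 0.66. Canonical markers took 6 to 11 of the 50 nearest places for 8 members and 0 for Mymk and Eva1a. The 6 libraries include the monocyte and microglia levels that chose the members, and Mymk and Eva1a share 0 counts in 3 libraries, so nothing is read from this likeness. Nav3, Tmem204 and Scamp5 had the least close neighbours of the 10.

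Relatives of the members and genes of their pathways were compared between microglia and monocytes across all genes with edgeR's quasi-likelihood test, using the genotypes as the repeats of a cell type. Only 2 residual degrees of freedom remain in this design. Of 17023 genes tested, 1.76% were higher and 3.23% lower in microglia at a Benjamini-Hochberg adjusted p of 0.05. As a check of the contrast, 12 of the 14 canonical markers were higher, all but Cx3cr1 and Csf1r. Of 58 relatives and pathway genes, members excluded, 43 were tested, 2 rose and 2 fell, and their median log2 fold change was 0.53 against 0.12 over all genes. Without either intravascular macrophage library, 11 rose and 10 fell. Without either monocyte library or without wild-type microglia none rose, and without mutant microglia 3 rose; in those 4 fits 0 or 1 fell, and the lone remaining library of a cell type is assumed to vary like the others.

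Among the transporters of the Slc1 family, Slc1a4, a carrier of small neutral amino acids, was higher in microglia (adjusted p = 0.0286, edgeR), and Slc1a5, a glutamine carrier, was lower, at a log2 fold change of -3.06 (adjusted p = 0.0349, edgeR). Slc1a4 had 1 and 0 counts in monocytes, or 0.0433 and 0 CPM, against 13.7 and 7.14 CPM in microglia and 23.2 and 3.80 CPM in intravascular macrophages. Slc1a5 stood at 58.6 and 61.8 CPM in monocytes and at 6.62 and 7.75 CPM in microglia, opposite in direction to Slc1a3. Of 6 genes of glutamate and glutamine metabolism none passed, with Glul, glutamine synthetase, at 3.03 (adjusted p = 0.0957, edgeR). Nav2, the relative of Nav3, was higher by 5.79 (adjusted p = 0.0101, edgeR), at 1.56 and 1.94 CPM in monocytes against 112 and 61.5 CPM in microglia. Nav1 was at -2.16 (adjusted p = 0.166, edgeR).

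The Scamp family gave no call. Scamp1, Scamp2 and Scamp3, which carry membrane between the Golgi and the cell surface, were all measured in monocytes as well as microglia, with Scamp2 at 94.6 and 86.7 CPM in monocytes and 552 and 1051 CPM in microglia (log2 fold change 3.05, adjusted p = 0.0567, edgeR). Scamp1 had 132 and 63.7 CPM in microglia and 0.0560 CPM in wild-type intravascular macrophages. Scamp5 was the one of these 4 genes with single-digit monocyte counts. None of the 5 other uroplakins was abundant enough to test. Eva1b, tested alone of the other Eva1 genes, was at 2.07 (adjusted p = 0.451, edgeR).

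None rose of 12 tested genes of the BMP receptor and SMAD pathway, the pathway that switches on Tmem100 in endothelium. These include targets and inhibitors of the pathway as well as receptors and SMAD factors upstream of Tmem100. Id3, a BMP target, fell by 4.10 on the log2 scale (adjusted p = 0.0431, edgeR). Eng, a BMP9 co-receptor, was at 3.63 (adjusted p = 0.0552, edgeR). The receptor gene Bmpr1a was at 8.88 (adjusted p = 0.0970, edgeR), with 0 and 20 counts in monocytes against 1013 and 471 in microglia. The receptor genes Bmpr2 and Acvrl1 were at 0.25 and -0.13. Of 8 fatty acid synthesis genes related to Thrsp none passed, and the close relative of Thrsp, Mid1ip1, was at 2.02 (adjusted p = 0.182, edgeR). None of 3 tested genes from a list of the myomaker family and cell fusion genes passed. Mymx, of the same list, had 0 counts in all 6 libraries and was not tested. None of 5 endothelial surface genes set beside Ecscr and Tmem204 passed. The calls rest on few degrees of freedom: over 11 alternative fits Slc1a4 and Slc1a5 passed in 6 each, Nav2 in 7 and Id3 in 5. Slc1a4 and Slc1a5 lost the call when any 1 monocyte or microglia library was left out, Nav2 without either monocyte library or wild-type microglia, and Id3 without mutant monocytes or either microglia library.

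**Figure D5:**
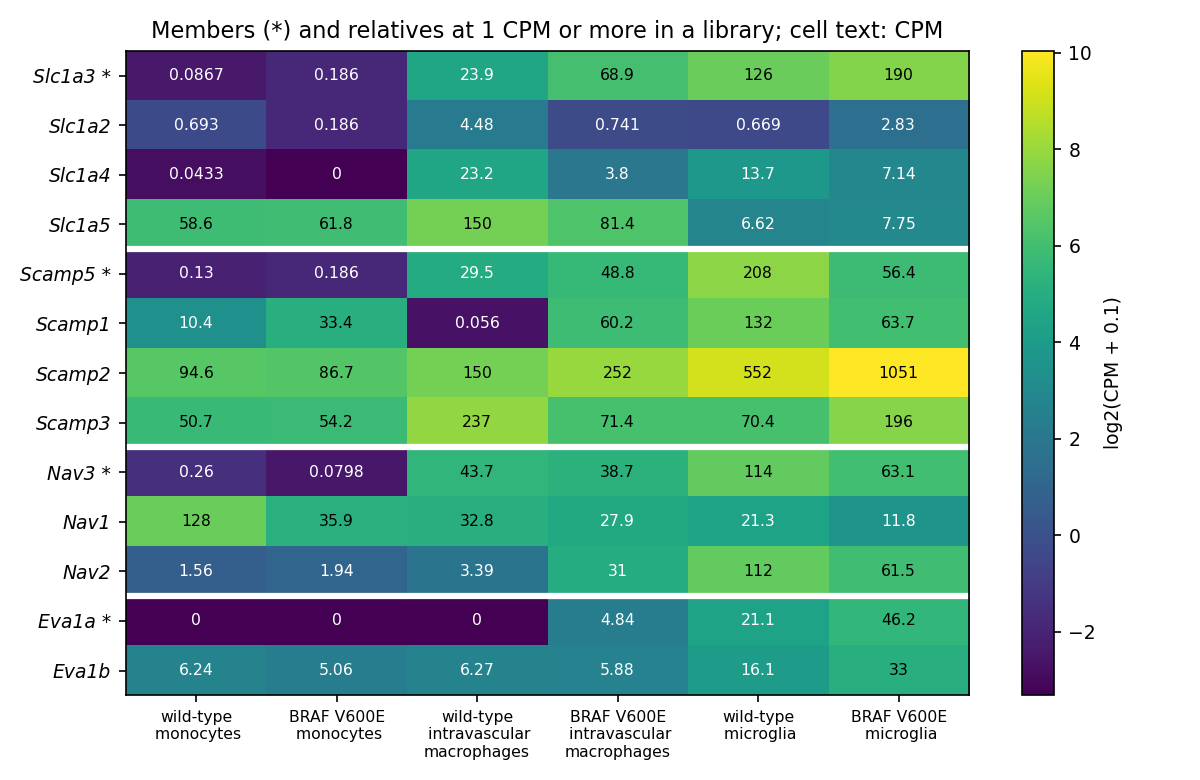
Levels of 4 members, marked by an asterisk, and of their relatives at 1 CPM or more, as a colour map with genes in rows and the 6 libraries in columns; colour is log2 of CPM plus 0.1 and the printed value is CPM. Slc1a5 lies lower in microglia than in monocytes, Nav2 and Scamp2 lie higher in microglia, and Scamp2 is at 86.7 CPM or more in every library.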

How the data were processed

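Per the file headers, the authors deposited raw counts and TPM values of each gene in 6 libraries. Per the labels' protocols, RNA came from a column kit, and libraries from SMART-Seq HT full-length cDNA and Nextera XT. The submitters' processing notes name bcl2fastq 2.20, Trimmomatic 0.37, STAR 2.5.2b, Subread 1.5.2 and mm10. Not given in the sources used here: their settings and whether counting used strand. Lines without a gene name (176, with 0.00507% to 0.0166% of counts) and with a date as name (26) were left out, and 94 repeated symbols were summed.

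The members and gene lists were chosen with earlier results of these data known. Counts were scaled by TMM in edgeR 4.0.16 (R 4.3.3) from all 6 libraries; log2 ratios used a prior count of 2. The size rule was an absolute log2 ratio of 2 with 10 CPM in the higher library. Folds against 0 counts are bounds against 3 counts per library. The deposited TPM, in which 1 gene, Gm23935, took 1.13% to 46.6% of a library, served as an alternative with a pseudocount of 0.1 and to order genes within a library. Gene length was the count to TPM ratio, calibrated to GENCODE M21 exonic length, and the length correction was a loess curve over genes at 10 CPM. Microglia and monocytes were compared by the quasi-likelihood test of edgeR with a genotype term, filterByExpr and Benjamini-Hochberg adjustment at 0.05; separate animals are not stated, so p-values measure only how far these libraries spread. Named were the 10 genes, canonical markers and family genes reaching 10 CPM. So were the 3 nearest genes of each member and up to 3 leading genes of each other marker list. Gfap, Aqp4, Fgfr3 and genes at 0 counts were added. Alternatives were DESeq2 1.42.0 size factors and Wald test, library size alone, TPM, a prior count of 0.5, no minimum level, length correction, no filter, no genotype term and each library left out; a joint length and GC correction was chosen after seeing the data. The scripts were tested on simulated data.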

Additional observations from a re-analysis of the deposited data

Results flagged for a closer look

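The mutant to wild-type ratios of Scamp5 and Tmem204 lay on opposite sides of 0 in the 2 macrophage types. Scamp5 had a log2 ratio of -1.88 in microglia and 0.73 in intravascular macrophages, a difference of -2.61. Tmem204 had 0.80 in microglia and -1.46 in intravascular macrophages, a difference of 2.26, but its microglia ratio came to 0.02 after the length correction and its intravascular macrophage ratio to -0.15 by TPM. Among the canonical markers, Sall1 had -0.85 and 1.53, a difference of -2.37, and Csf1r had -1.66 and 2.27, a difference of -3.93. The signs stayed opposite in 6 of 6 alternative scalings and corrections for each of these 4 genes. With 1 library per group these differences were not tested.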

How the results depend on the processing

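No member passed the size rule upward in mutant microglia under any alternative run. Downward the count of 0 became 1, Scamp5, with library size alone and with TPM. In intravascular macrophages the count of 2 higher members became 5 with TPM and 4 with no minimum level; it did not change under the other alternatives. The counts of members below microglia, 8 in wild type and 7 in the mutant, stayed within 1.5 times. Over all genes, the 256 higher and 389 lower in mutant microglia became 87 and 1437 with library size alone and 1396 and 1466 with no minimum level, and the lower count 223 with the length correction and 177 with length and GC. In intravascular macrophages 1462 higher and 1343 lower became 2688 and 537 with TPM, and 6363 and 2575 with no minimum level. Of the family genes, 2 were higher and 2 lower; library size alone gave 0 and 0, the DESeq2 Wald test 6 and 7, and no filter 7 higher, while DESeq2 size factors and no genotype term each gave 1 lower. Leaving out 1 library gave 0 to 11 higher and 0 to 10 lower, and 103 to 2335 higher and 262 to 2834 lower over all genes, against 300 and 549. The all-gene counts were 133 and 232 with library size alone, 1083 and 1550 with the DESeq2 Wald test, 542 and 904 with no filter, and 165 higher with no genotype term. Without 1 library the log2 fold change of Scamp1 ran from -1.91, without wild-type microglia, to 5.10, without wild-type monocytes. The cause was not tested. The fit of microglia against monocytes is blocked by genotype, and no genotype term is its unblocked form. No paired analysis was possible because, for replicate numbers as pairs, the labels give none and each group has 1 library.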
